A study of Mus musculus with 6 samples.

Results

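Transcripts of the nuclear-encoded subunits of oxidative phosphorylation were examined in regulatory T cells (Tregs) sorted from spleens of female mice on the NOD background, which is prone to autoimmune diabetes. The members were the genes with a probe set of a single symbol starting with Ndufa, Ndufb, Ndufc, Ndufs, Ndufv, Uqcr, Cox4i, Cox5, Cox6, Cox7, Cox8 or Atp5, together with Sdha, Sdhb, Sdhc, Sdhd and Cycs, without the Ndufaf assembly genes. They numbered 83 of the 18193 genes measured, and where a gene had several probe sets the brightest on average stood for it. By complex there were 34 genes of complex I, 4 of complex II, 8 of complex III, the cytochrome c gene, 19 of complex IV and 17 of complex V. Ndufa4 and its paralog Ndufa4l2 were placed with complex IV, where the Ndufa4 protein is now known to sit.

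All mice carried the BDC2.5 T cell receptor transgene and the Foxp3GFP reporter, which marks Foxp3-expressing cells with GFP. In the treated group (3 mice) the genotype was RAG1o/o and 37.5 µg of the anti-CD3 antibody KT3 had been given intravenously on each of 5 days from an age of 17 days. In the untreated group (3 mice) it was RAG1+/o and no antibody was given. Spleens were taken at 28 or 29 days of age, and each mouse had its own Affymetrix M430v2 array. In the treated mice this was 11 or 12 days after treatment, which by these ages counts from the first injection. The cells were CD4+ GFP+ and lacked B220, CD8a and CD11b or CD11c. RAG1 genotype and antibody differed together, so a difference between the groups cannot be assigned to either. RAG1o/o mice cannot rearrange receptor genes of their own, which leaves the transgenic receptor, whereas RAG1+/o mice also hold B cells and other receptors.

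Oxidative phosphorylation makes most of the ATP of a resting cell. Complex I (NADH dehydrogenase) and complex II (succinate dehydrogenase) feed electrons into the inner mitochondrial membrane, complex III passes them to cytochrome c, and complex IV (cytochrome c oxidase) hands them to oxygen. Complexes I, III and IV pump protons, and the proton gradient drives complex V, the ATP synthase. Tregs are known to depend on mitochondrial respiration more than conventional effector T cells do.

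Array medians lay between 85.3 and 92.4 on the linear scale of the deposited intensities, and the number of arrays limits the precision. All values below are log2 of these intensities, with mean ± SD over n = 3 arrays per group. The T cell markers Cd3e (11.62 to 12.16) and Foxp3 (9.95 to 12.44) were high on every array. The mean of 9 B cell markers was 6.75 to 6.77 in treated samples and 7.50 to 9.98 in untreated ones, with the low value in untreated replicate 3, and no marker was listed at 0. The mean of 12 myeloid markers was 8.99 to 10.26 in treated samples and 7.15 to 9.79 in untreated ones, again lowest in untreated replicate 3. The gate removed CD11b+ cells, yet the neutrophil gene S100a8 read 14.19, 12.96 and 13.75 in treated and 13.67, 12.18 and 6.80 in untreated samples. Untreated replicate 2 had the lowest mean of 6 T cell markers, 10.37 against 11.20 to 11.94 elsewhere. The mean of 8 Treg markers was 10.46 to 10.78 in treated and 10.86 to 11.40 in untreated samples, with 10.86 in untreated replicate 2. The single markers were divided. Ikzf4 read 8.10, 8.20 and 7.77 in treated and 10.62, 10.30 and 10.49 in untreated samples. Gpr83 read 7.03, 7.65 and 7.35 against 9.83, 9.94 and 10.54. Foxp3 went the other way without overlap, at 11.43, 11.46 and 12.44 against 10.75, 9.95 and 11.07. The groups overlapped for Ctla4, Il2ra, Ikzf2, Nrp1 and Tnfrsf18. The 3′ minus 5′ difference of the Actb control probe sets, which grows as RNA is shortened from its 5′ end, was 1.42, 1.94 and 3.62 across the treated arrays in replicate order and 1.31, 1.95 and 0.92 across the untreated arrays. For Gapdh it was 3.38, 3.65 and 4.10 and 3.23, 3.87 and 2.02 in the same order. Treated replicate 3 was the highest array on both controls, and untreated replicate 2 was the second highest on both and the highest of its group. The part of other cell types and of RNA quality in the results was not tested.

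The comparison asked whether transcripts of the respiratory chain differed between the Tregs present after anti-CD3 treatment and those of untreated mice. No subunit passed the test. Limma called 0 of 83 members at an adjusted p of 0.05, as it called 0.0% of all 18193 genes. At an unadjusted limma p under 0.05 there were also 0 members by the probe set that stood for each gene. Of all genes, 1.82% lay on the higher side and 3.17% on the lower, 4.99% in all. The smallest unadjusted limma p was 0.0596, for Atp5d. The 95% interval of the difference spanned 0 for all 83 members, with a median half-width of 0.77. These intervals are unadjusted, so for a typical member a difference under about 0.77 would not reach an unadjusted limma p of 0.05. The adjusted threshold asks for a larger difference than that.

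The signs of the differences leaned to the treated side. Of the 83 members, 61 were above 0 and 22 below, with a median of +0.21, whereas 58.5% of all genes were above 0 with a median of +0.05. Among the 2625 genes whose mean level lay within the middle range of the members (9.45 to 11.51), 40.2% were above 0 and the median was −0.10. Treated replicate 2 was the lowest treated array for 58.6% of these genes, with a median of −0.33 relative to the other treated mice. For the members these values were 36.1% and −0.04, so the 2 sets also differed in that mouse. All 3 treated values lay above all 3 untreated values for 5 members, Ndufb7, Ndufb9, Ndufb11, Cox6b1 and Cox6a2, beside 5.61% of all genes. They lay below for 0 members, beside 5.24% of all genes. The lean of the signs did not remain when a single untreated mouse was left out.

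Untreated replicate 2 had the lowest value of the 6 arrays for 53 of the 83 members, against 19.4% of all genes. Relative to the other untreated mice its members fell by a median of 0.79, and 32 members lay lower there by 1 or more on the log2 scale, as did 2.35% of all genes. Without this mouse, 33 members were above 0 and 50 below, with a median of −0.08, while the median of all genes stayed at +0.05. Limma then called 0 members (smallest adjusted p = 0.998). Among the members Sdhd alone had an unadjusted limma p under 0.05, at 0.0393, beside 2.33% of all genes. All treated values lay above all remaining untreated ones for 5 members and below for 2, beside 16.5% of all genes in either direction. The 5 were the same members as over all arrays, which leaving out a mouse could not change.

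**Figure D1:**
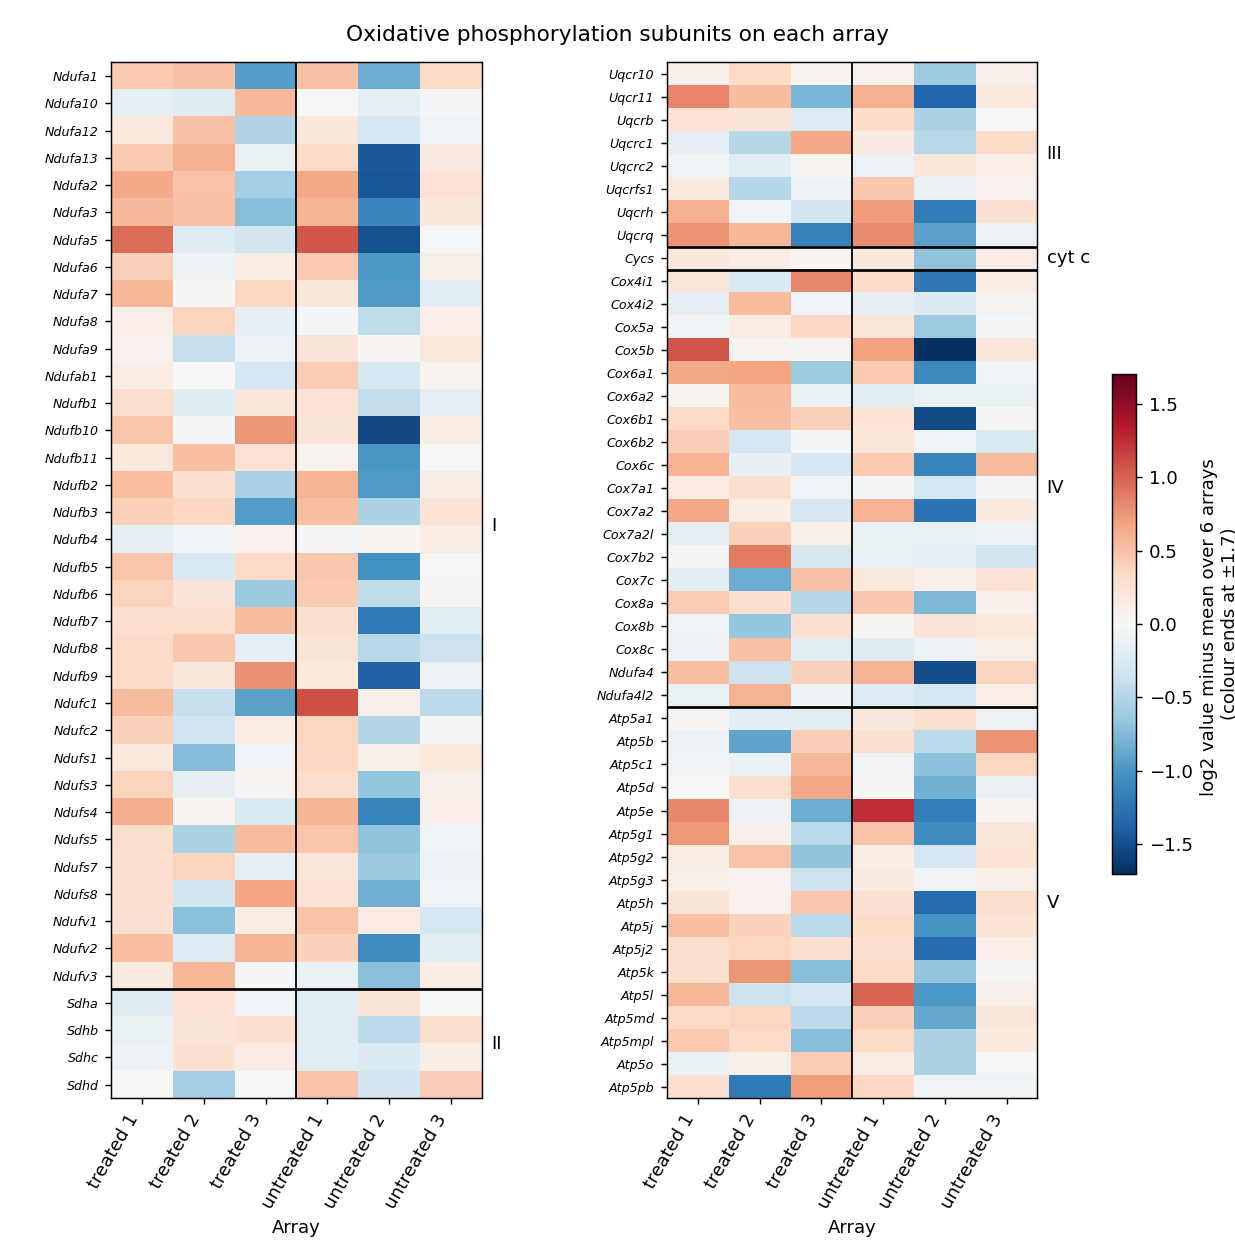
Each row is a subunit gene, grouped by complex, and each column is an array; colour gives the log2 value minus the mean of that gene over the 6 arrays. Untreated replicate 2 is blue for most of complexes I, III, IV and V, with the lowest value for 53 of 83 genes, while rows of complex II are paler.

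The same pattern appeared in the means of the complexes, given here as a description with no test. Complex I measured 10.32, 10.02 and 9.94 across the treated arrays in replicate order and 10.33, 9.26 and 9.98 across the untreated arrays. Complex III measured 10.92, 10.66 and 10.38 against 10.99, 9.99 and 10.73, and complex V 11.42, 11.19 and 11.06 against 11.50, 10.48 and 11.31. Complex IV measured 9.12, 9.05 and 8.91 against 9.07, 8.25 and 8.97. In each of these 4 complexes untreated replicate 2 was the lowest array, and the other untreated mice lay within or above the treated range. Complex II was the flattest, at 10.34, 10.49 and 10.54 against 10.43, 10.25 and 10.65. The difference between group means was +0.23 for complex I, +0.01 for II, +0.08 for III, +0.26 for IV and +0.13 for V. Without untreated replicate 2 these became −0.07, −0.09, −0.21, +0.01 and −0.18.

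**Figure D2:**
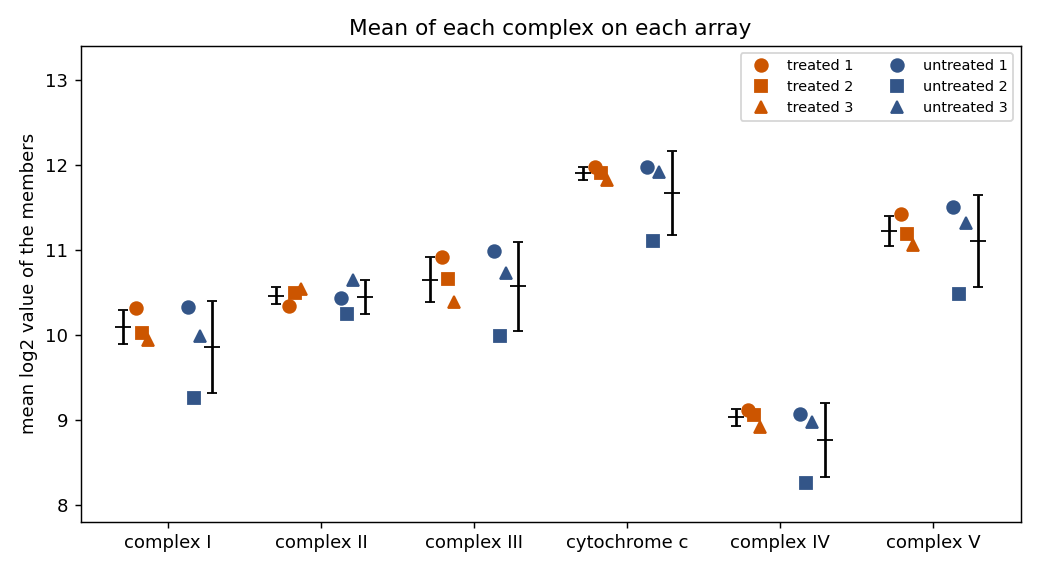
Points give the mean log2 value over the members of each complex on each array, and black bars the group mean ± SD (n = 3). Untreated replicate 2 sits apart in every complex but II; levels of different complexes come from different probe sets and are not compared.

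Complex I is the largest entry point of the chain, and its core subunits carry the flavin and the iron-sulphur clusters. Of its 34 members 26 were above 0 and 8 below, with a median of +0.22. Among the 6 core members measured, 4 were above 0 and 2 below. Ndufv2, an iron-sulphur subunit of the NADH-oxidising arm, measured 11.81, 11.08 and 11.87 in treated and 11.69, 10.24 and 11.10 in untreated samples (difference +0.58, 95% interval −0.35 to 1.51, limma adjusted p = 0.914), and differed by +0.19 without untreated replicate 2. Only untreated replicate 2 fell outside the treated range. Ndufs1, the large iron-sulphur subunit of the same arm, went the other way at 10.55, 9.64 and 10.31 against 10.73, 10.47 and 10.55 (−0.42, interval −1.02 to 0.18). Here treated replicate 2 was the low array and all 3 untreated values lay close together. Ndufv1, which binds NADH, showed the same low treated replicate 2 (9.63) and differed by −0.23. The core subunits Ndufs3, Ndufs7 and Ndufs8, of the part that leads to the quinone site, differed by +0.19, +0.34 and +0.41. Each had its lowest value in untreated replicate 2, and without that mouse they differed by −0.10, +0.11 and +0.11.

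The remaining 28 complex I genes encode supernumerary subunits, which surround the core and are needed for assembly and stability, and of these 22 were above 0 and 6 below. The 3 members whose groups did not overlap all belong to the membrane arm. Ndufb9 measured 10.64, 10.50 and 11.09 in treated and 10.48, 8.94 and 10.23 in untreated samples, a difference of +0.85 (interval −0.10 to 1.81, limma adjusted p = 0.914). Ndufb7 measured 10.46, 10.48 and 10.72 against 10.45, 8.98 and 9.99 (+0.75, interval −0.10 to 1.59). Ndufb11 measured 12.11, 12.44 and 12.17 against 11.99, 10.94 and 11.92 (+0.62, interval −0.08 to 1.33). In all 3 genes the lowest treated value lay just above untreated replicate 1, and untreated replicate 2 was the lowest array. Without that mouse they differed by +0.38, +0.33 and +0.28. Groups that do not overlap cannot come to overlap when a mouse is left out, so the lack of overlap there adds nothing. The other probe sets of these genes had the same sign, 2 of 2 for Ndufb9, 1 of 1 for Ndufb7 and 2 of 2 for Ndufb11. Ndufa7 (+0.63, or +0.31 without untreated replicate 2) and Ndufb8 (+0.41) also leaned higher with overlapping groups, while Ndufa9, which binds a nucleotide cofactor beside the quinone site, differed by −0.28.

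The depth of the fall in untreated replicate 2 varied widely within complex I. Ndufa5 was 7.73 there against 10.26 and 9.20 in the other untreated mice, Ndufa2 was 8.76 against 10.84 and 10.45, and Ndufb10 was 7.01 against 8.76 and 8.67. Ndufa9, Ndufa10 and Ndufs1 were lower there by 0.16, 0.15 and 0.17 only. In the treated group, replicate 3 was the lowest array for 16 of the 34 members of complex I, beside 31.6% of all genes. Replicate 2 was the lowest for 15, beside 35.3%. The median deviations of these mice from the other treated ones were −0.08 and −0.17. Some of the 16 members were also low in untreated replicate 2. Ndufa2 was 9.63 in treated replicate 3 against 10.85 and 10.68 in the other treated mice. Ndufb10 was instead highest of the treated group there, at 9.30 against 9.02 and 8.52. Ndufa1, a small membrane subunit, was 12.50, 12.55 and 11.12 in treated and 12.55, 11.21 and 12.40 in untreated samples, so that 1 mouse of each group was low and the difference was 0.00. Ndufc1, a small subunit of the membrane arm, had the lowest difference of all members, at 11.09, 10.16 and 9.64 against 11.65, 10.64 and 10.11 (−0.50, interval −1.64 to 0.64). Each group spread more widely than this difference. The rule for named genes did not pick Ndufa5, Ndufa2, Ndufb10, Ndufa10, Ndufa1 or Ndufc1, whose values were already known when they were chosen for mention.

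Complex II also serves the tricarboxylic acid cycle, and all of its subunits are nuclear-encoded. Its 4 genes were divided, 2 above 0 and 2 below. Sdha, the flavoprotein that oxidises succinate, measured 11.65, 12.10 and 11.80 in treated and 11.66, 12.07 and 11.86 in untreated samples (−0.01, interval −0.47 to 0.44). The groups covered the same range, and untreated replicate 2 was the highest of its group. The iron-sulphur subunit Sdhb differed by +0.24 and the membrane anchor Sdhc by +0.20. The other anchor, Sdhd, measured 10.34, 9.79 and 10.36 against 10.83, 10.02 and 10.77 (−0.38, interval −1.03 to 0.28). Without untreated replicate 2 the groups of Sdhd no longer overlapped, at −0.63, as for 16.5% of all genes. For Sdha 2 of 3 other probe sets, and for Sdhc the 1 other, had the opposite sign.

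Complex III moves electrons from quinol to cytochrome c, and of its 8 members 5 were above 0 and 3 below. The Rieske iron-sulphur protein gene Uqcrfs1 measured 11.11, 10.45 and 10.84 in treated and 11.40, 10.82 and 11.01 in untreated samples (−0.28, interval −0.84 to 0.28). The structural core genes Uqcrc1 and Uqcrc2 differed by −0.01 and −0.14. Uqcrc2 was highest of all in untreated replicate 2 (11.79). Among the small subunits, Uqcrh, Uqcrq and Uqcr11 had the widest ranges over the 6 arrays of the complex (1.91, 1.95 and 2.19), while Uqcr10 (0.95) and Uqcrb (0.84) had ranges no wider than that of Uqcrfs1 (0.95). Uqcrh, the hinge protein gene, was 12.11, 11.45 and 11.18 against 12.23, 10.32 and 11.77, and Uqcrq was 10.21, 10.01 and 8.30 against 10.25, 8.54 and 9.35. Both groups held a low and a high mouse, and the differences were +0.14 and +0.12. Uqcr10 differed by +0.30 and Uqcr11 by +0.38, with intervals of −0.25 to 0.85 and −1.03 to 1.79.

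Cycs encodes cytochrome c, the soluble carrier between complexes III and IV that also triggers caspases when it leaves the mitochondrion. It measured 11.98, 11.91 and 11.82 in treated and 11.97, 11.10 and 11.92 in untreated samples (+0.24, interval −0.37 to 0.84). All arrays but untreated replicate 2 lay between 11.82 and 11.98. Of the 3 other probe sets of Cycs, 2 shared the sign. In untreated replicate 2 one of the bright ones had its lowest value (9.93) and the other its highest (11.73).

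The nuclear subunits of complex IV surround a catalytic core made in the mitochondrion and tune its activity. Of 19 members 17 were above 0 and 2 below, with a median of +0.26. The 11 ubiquitous forms were the lowest of the subunit classes in untreated replicate 2 relative to the other untreated mice (median −1.43), and 9 of the 11 had their lowest value there. Cox5b, a zinc-binding matrix subunit, measured 12.58, 11.56 and 11.56 in treated and 12.19, 9.46 and 11.72 in untreated samples, and was 5.62-fold lower in that mouse than in the mean of the other untreated ones. Its difference was +0.78 with an interval of −0.86 to 2.41, and −0.05 without that mouse. All 5 other probe sets of Cox5b had the same sign. Cox6b1, an intermembrane subunit that holds the dimer together, measured 11.97, 12.14 and 12.04 against 11.86, 10.11 and 11.65 (+0.84, interval −0.19 to 1.87, limma adjusted p = 0.914). The treated values were tight (12.05 ± 0.09) and lay above every untreated one, and without untreated replicate 2 the difference was +0.29.

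Cox4i1, the ATP-sensing subunit, measured 10.79, 10.33 and 11.40 against 10.89, 9.37 and 10.71 (+0.52), and Ndufa4 10.14, 9.27 and 10.03 against 10.21, 8.12 and 10.01 (+0.37). Without untreated replicate 2 Cox4i1 differed by +0.05 and Cox6a1 by +0.03. Over all arrays Cox5a differed by +0.29, Cox6a1 by +0.47, Cox6c by +0.11, Cox7a2 by +0.33 and Cox8a by +0.15, all with their lowest value in untreated replicate 2. Cox7c and Cox7a2l departed from the rest. Cox7c was 8.31, 8.23 and 8.38 in untreated samples, with its low value in treated replicate 2 (7.28), and differed by −0.36. Cox7a2l, which links complexes III and IV into supercomplexes, was 11.71, 12.27 and 11.98 against 11.76, 11.76 and 11.80 (+0.21), the narrowest untreated group among these genes.

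Several complex IV subunits have alternative forms, most of them made mainly in muscle, lung or testis. Of such forms 8 were measured, here called tissue isoforms, with the paralog Ndufa4l2 counted among them. Cox7a1, Cox8b, Cox6b2, Cox7b2 and Ndufa4l2 were dim, with means below the median of all probe sets (6.46). Cox4i2 measured 6.67, 7.36 and 6.74 in treated and 6.68, 6.58 and 6.87 in untreated samples. Cox6a2, the muscle form of Cox6a1, was 6.85, 7.32 and 6.68 against 6.61, 6.67 and 6.67, a difference of +0.30 in which the lowest treated value (6.68) only just cleared the highest untreated one (6.67). Over the 8 genes the median deviation of untreated replicate 2 was −0.04. In treated replicate 2, 6 of the 8 were highest of the treated group, as were 8136 of all 18193 genes. Among the 11395 genes that were not dim there were 3577. Differences ran from −0.31 for Cox8b to +0.38 for Cox7b2, with Cox7a1 at +0.23, Cox8c at +0.14, Cox6b2 at +0.07, Cox4i2 at +0.21 and Ndufa4l2 at +0.26.

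Complex V was the most divided of the large complexes, with 10 members above 0 and 7 below. In the catalytic F1 head, Atp5a1 (alpha) measured 13.66, 13.46 and 13.45 in treated and 13.84, 13.92 and 13.54 in untreated samples (−0.24, interval −0.65 to 0.17), with untreated replicate 2 the highest array. Its other probe sets disagreed. A bright one (mean 12.86) measured 12.66, 12.36 and 12.82 against 13.08, 13.01 and 13.24, without overlap. It differed by −0.50, at an unadjusted limma p of 0.027, where 4.99% of all genes had a p under 0.05. The weaker one (mean 7.61) differed by +0.25. Atp5b (beta) measured 12.08, 11.28 and 12.60 against 12.47, 11.72 and 12.94 (−0.39, interval −1.37 to 0.59), and differed by −0.72 without untreated replicate 2. The delta subunit gene Atp5d had the smallest p of all members, at 11.21, 11.51 and 11.88 against 11.24, 10.40 and 11.09 (+0.63, interval −0.03 to 1.28, limma adjusted p = 0.914), and treated replicate 1 lay just below untreated replicate 1. Atp5c1, the rotor gamma subunit, differed by +0.26. Atp5e, the epsilon subunit, ranged widely in both groups, at 10.78, 9.87 and 9.12 against 11.22, 8.80 and 10.01 (−0.08), and was also mentioned with its values known.

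Atp5g1, Atp5g2 and Atp5g3 encode the same mature c-ring protein with different import signals. They differed by +0.25, −0.05 and −0.12, and treated replicate 3 was the lowest treated array for all 3. Stalk subunits hold the head in place, and Atp5h was 12.70, 12.55 and 12.94 against 12.74, 11.17 and 12.78 (+0.50) while Atp5o differed by +0.28. Of the 5 membrane accessory genes, which help the synthase form rows, all were lowest of their group in untreated replicate 2, beside 33.7% of all genes. In the treated group 4 of 5 were lowest in replicate 3, beside 31.6%. Atp5j2 differed by +0.62 (interval −0.34 to 1.57), at 11.32, 11.39 and 11.29 against 11.30, 9.70 and 11.14, and by +0.11 without untreated replicate 2. Atpif1, the inhibitor of the synthase, is no member by symbol, and it measured 11.59, 11.41 and 9.69 against 11.88, 10.86 and 10.58 (−0.21).

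**Figure D3:**
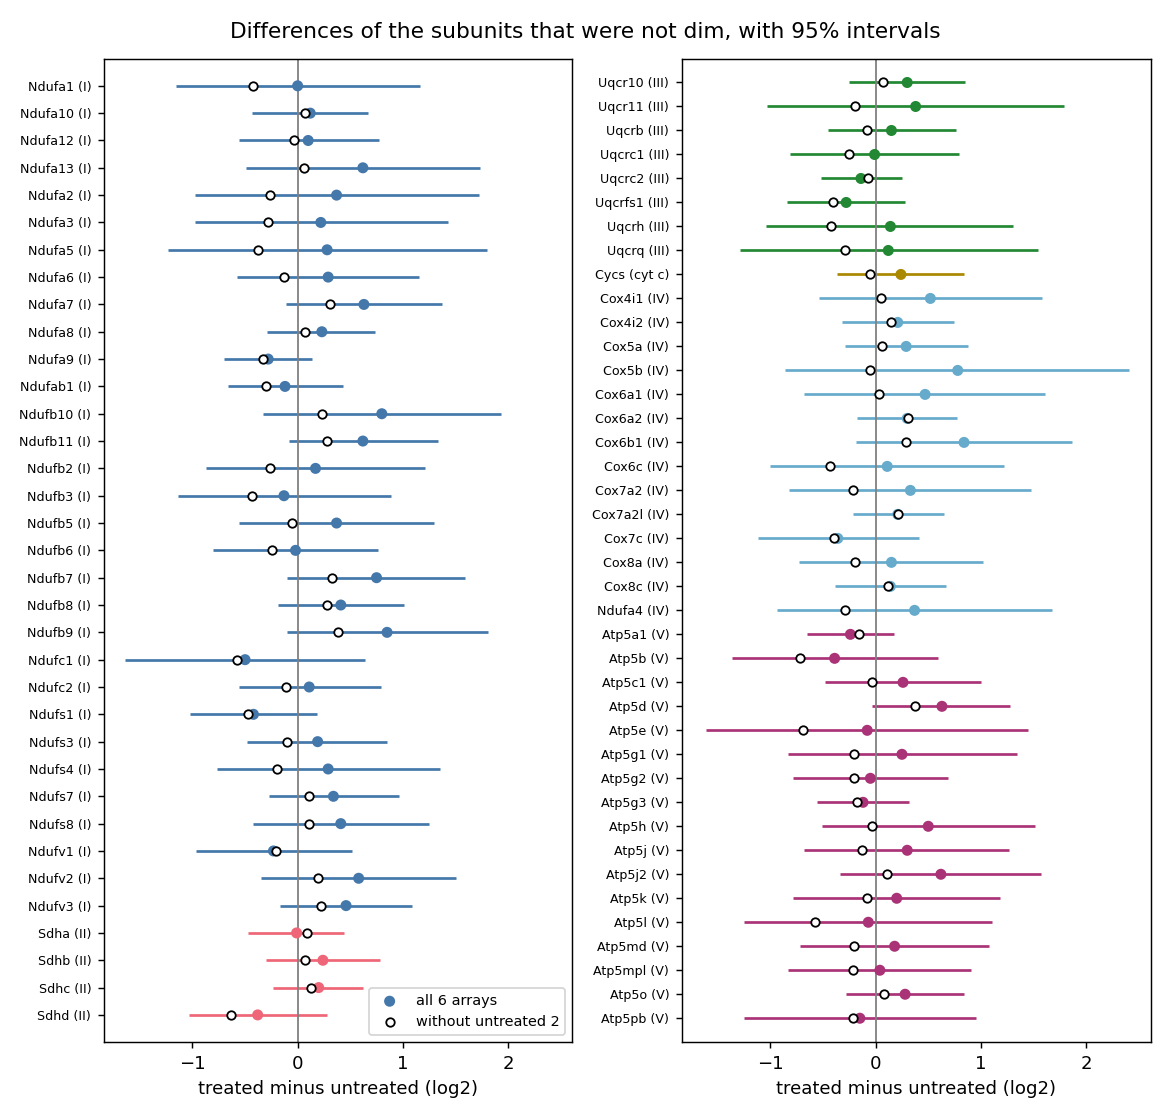
Filled points give the treated minus untreated difference (log2) of each member that was not dim, bars its 95% limma interval, and open points the difference without untreated replicate 2. Every bar crosses 0, and most open points lie left of the filled ones.

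Fewer cells of a type and less RNA per cell cannot be told apart in these bulk samples. The fall in untreated replicate 2 was seen in other probe sets of the members too. Of 72 further probe sets that were not dim, 46 had their lowest value there and 28 lay lower by 1 or more. It was also seen outside the respiratory chain. Genes chosen by symbol after these values were seen were also lower in that mouse, with medians of −0.53 for 76 mitochondrial ribosomal protein genes, −0.67 for 55 cytosolic ribosomal protein genes, −0.53 for 40 proteasome genes and −0.31 for 24 mitochondrial import genes, beside −0.79 for the members and +0.02 for all genes. For treated replicate 3 against the other treated mice the median was −0.13 for the members, and +0.21, +0.08, +0.26 and +0.09 for these families. The same median for untreated replicate 2 was −0.20 over the tricarboxylic acid cycle genes, −0.17 over the carriers and channels and −0.30 over the assembly factors described next. For treated replicate 2 against the other treated mice it was −0.51, −0.54 and −0.09 over these lists. It was −0.04 for the members and +0.06 for all genes. Untreated replicate 2 was also high in the 3′ minus 5′ differences (Actb 1.95, Gapdh 3.87) and lowest in T cell markers (10.37), and the part of these in the fall was not tested.

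**Figure D4:**
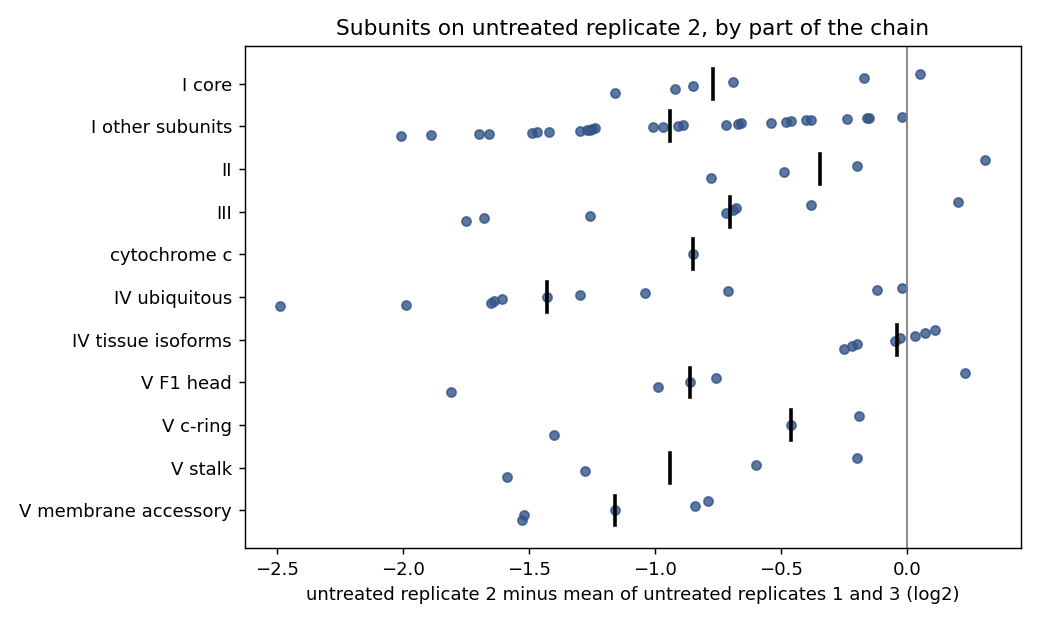
Each point is 1 member, placed at its value in untreated replicate 2 minus the mean of untreated replicates 1 and 3 (log2), and black bars are medians. Ubiquitous complex IV subunits reach furthest left (median −1.43), while the tissue isoforms lie around 0 (median −0.04). Most of the tissue isoforms were dim, which leaves little room for a fall to be seen.

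Genes that build or feed the chain were counted in the same way, and 0 of them were called by limma in any list. Of 45 assembly factor genes 20 were above 0 and 25 below (median −0.04). Lrpprc, which stabilises mitochondrial messenger RNA, measured 7.78, 7.21 and 7.29 in treated and 8.26, 8.08 and 8.03 in untreated samples (−0.70, interval −1.17 to −0.23, limma adjusted p = 0.914), with groups that did not overlap. Cox15, needed for haem a, differed by −0.43 and the complex V factor Tmem70 by −0.75. Of 17 tricarboxylic acid cycle genes 6 were above 0 and 11 below (median −0.22). Idh3g, of the isocitrate dehydrogenase of the cycle, differed by +0.48 without overlap. The succinate-CoA ligase genes Suclg1 and Suclg2 differed by −0.31 without overlap and by −0.54 with overlap. Among 16 regulators of mitochondrial biogenesis 8 were on each side. Nrf1, an activator of respiratory genes, was 9.68, 9.74 and 9.62 against 9.44, 8.98 and 9.46 (+0.39, interval −0.05 to 0.83). Its groups did not overlap, and it was lowest in untreated replicate 2 as many members were. Gabpa, which encodes another such activator, was 10.50, 9.79 and 10.64 against 10.58, 10.86 and 11.10 (−0.54). Tfb2m, a mitochondrial transcription factor gene, differed by −0.77 without overlap. In the assembly, cycle and regulator lists 1, 2 and 1 genes were higher without overlap, beside 5.61% of all genes. Lower without overlap were 3, 2 and 1, beside 5.24% of all genes.

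Of 10 carrier and channel genes 3 were above 0 and 7 below, among them Slc25a5 (−0.24), which exchanges ADP for ATP, Slc25a11 (−0.24) and the channel gene Vdac3 (−0.34). Cyc1, the cytochrome c1 gene of complex III, whose symbol lies outside the rule, measured 10.64, 10.32 and 10.90 against 10.85, 9.94 and 10.63 (+0.15). ND5, a complex I subunit encoded by mitochondrial DNA, measured 13.88, 13.27 and 12.74 against 13.62, 14.05 and 13.81 (−0.53, interval −1.23 to 0.17). It was highest of all in untreated replicate 2, where most nuclear subunits were lowest.

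Many respiratory genes are known to share promoter elements bound by NRF1, by ETS family factors such as GABP, and by YY1, so the promoters of the members were searched for these letters. RefSeq windows of 300 bases (GRCm38.p6, 250 bases before to 50 after the start) were matched for 68 of the 83 members. The NRF1 letters (GCGCA, any 1 base, then GCGC), on either strand, were in 14 of the 68 (20.6%) and in 4.78% of all 27025 windows. The ETS letters CCGGAAG were in 16 (23.5%) and in 9.12% of all, and the YY1 letters AAGATGGC in 8 (11.8%) and in 2.88% of all. The motifs were counted separately, and a window could hold several. Of the 27 windows of members lower by 1 or more in untreated replicate 2, 10 held the ETS letters and 4 the NRF1 letters. Of the 41 other windows, 6 held the ETS letters and 10 the NRF1 letters. That division came from the measured values, so it was given no test, and a match is not a binding site.

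The windows of 4 members follow, 5′ to 3′ in the direction of the gene, with the matched letters in capitals: Cox6b1 and Ndufb7, whose groups did not overlap and which each hold the ETS letters, Atp5h, which holds both NRF1 and ETS letters and was low in untreated replicate 2, and Sdha, which holds the NRF1 letters at 3 places and covered the same range in both groups.
Cox6b1 (chr7:30626065-30626364, minus strand): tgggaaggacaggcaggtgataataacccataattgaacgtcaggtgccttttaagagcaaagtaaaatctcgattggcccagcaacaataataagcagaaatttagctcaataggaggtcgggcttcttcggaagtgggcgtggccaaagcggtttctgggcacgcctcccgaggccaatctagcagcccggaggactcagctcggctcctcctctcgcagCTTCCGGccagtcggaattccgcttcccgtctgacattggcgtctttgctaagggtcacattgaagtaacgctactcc
Ndufb7 (chr8:83566508-83566807, plus strand): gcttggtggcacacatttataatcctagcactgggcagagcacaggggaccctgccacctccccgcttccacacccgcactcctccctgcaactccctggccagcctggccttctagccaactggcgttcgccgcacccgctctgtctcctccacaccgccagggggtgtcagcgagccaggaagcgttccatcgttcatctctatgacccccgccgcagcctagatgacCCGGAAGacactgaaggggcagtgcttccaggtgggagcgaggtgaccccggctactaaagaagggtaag
Atp5h (chr11:115419870-115420169, minus strand): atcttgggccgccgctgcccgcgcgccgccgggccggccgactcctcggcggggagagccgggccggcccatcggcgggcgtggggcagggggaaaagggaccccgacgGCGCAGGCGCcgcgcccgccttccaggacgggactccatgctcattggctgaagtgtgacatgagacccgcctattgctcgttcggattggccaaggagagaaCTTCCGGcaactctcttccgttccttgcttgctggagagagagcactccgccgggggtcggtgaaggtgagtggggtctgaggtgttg
Sdha (chr13:74350191-74350490, minus strand): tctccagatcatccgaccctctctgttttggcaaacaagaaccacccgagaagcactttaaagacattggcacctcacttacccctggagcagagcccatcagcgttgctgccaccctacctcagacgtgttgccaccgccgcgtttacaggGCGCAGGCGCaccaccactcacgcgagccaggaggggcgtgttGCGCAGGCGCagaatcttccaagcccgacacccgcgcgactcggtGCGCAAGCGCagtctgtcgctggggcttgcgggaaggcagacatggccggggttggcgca
In Cox6b1 and Atp5h the ETS letters read on the opposite strand (CTTCCGG). Cox5b, with the widest range of the members (3.12 over the 6 arrays), held none of the 3 motifs in its window. Among the other members whose groups did not overlap, Ndufb11 held none of them either, and no match was found for Ndufb9 or Cox6a2.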

How the data were processed

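The data are 6 Affymetrix M430v2 arrays, each of 1 mouse. Per the labels' protocols, RNA was taken up in Trizol and amplified in 2 rounds, which can strengthen 3′ bias. The authors deposited RMA intensity values on a linear scale, with background correction, normalization and summary per probe set done in GenePattern per the series' design text; no source used here gives its version. RMA makes arrays alike, so a shift common to most transcripts could not be seen. Here log2 was taken of 45037 probe sets, without 64 controls. Symbols came from the platform annotation, updated by gene identifier for 34741 of 34945 probe sets with 1 symbol; 932 had several and 9160 none, and 10 of those with several touch the member rule and were not used. One linear model per probe set was fitted to all of them in limma 3.58.1 (R 4.3.3). P-values were adjusted by Benjamini-Hochberg over 18193 genes, with a threshold of 0.05. P-values measure the spread between mice. Dim means a mean below 6.46, the median of all probe sets, which held for 8 members. Of 50 members with several probe sets, 34 had 1 sign throughout and 16 did not.

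Members, lists and tests were chosen with earlier results of these data known, so their direction is no independent evidence. Named were fixed core subunits and isoforms, per complex up to 4 members of smallest p, members without overlap, and up to 3 genes of each other list. The fit was tested on simulated data. Figures were drawn with matplotlib 3.10.9. Alternatives covered replicate and array file number as blocks, each mouse left out, probe set choice, normalization, dim probe sets, variance model, array weights and symbols.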

Additional observations from a re-analysis of the deposited data

How the results depend on the processing

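No alternative called a member, 0 of 83 in each of those run, and no difference of a named member crossed the threshold. Leaving out 1 mouse at a time moved the members at an unadjusted limma p under 0.05 between 0 and 8 (8 without untreated replicate 1, beside 3.33% of all genes) and the non-overlapping members between 7 and 18 (18 without treated replicate 3, beside 20.2% of all genes). The first count was 6 with the replicate block (7.37% of all genes), 1 with the runs of array file numbers as a block (6.22%), 1 within the first run (5.34%) and 3 after quantile normalization (5.35%). The second was 24 within the first run, where 37.4% of all genes separate with 2 mice a group, 8 after quantile normalization (11.1%) and 3 after median centring (11.0%). The deviations of same-numbered mice correlated over genes at 0.51, 0.01 and 0.10 for replicates 1, 2 and 3, so the numbers were not taken to pair them, and the replicate block changed no call. With 1 mouse left out, these differences crossed 0: Atp5c1 from −0.03 to +0.50, Atp5g1 from −0.21 to +0.56, Atp5g2 from −0.31 to +0.27, Atp5g3 from −0.20 to +0.03, Atp5h from −0.03 to +0.77, Cox4i2 from 0.00 to +0.34, Cox5b from −0.05 to +1.31, Cox6b2 from −0.12 to +0.23, Cox6c from −0.43 to +0.40, Cox7a2 from −0.22 to +0.71. So did Cox8a from −0.20 to +0.43, Cox8c from −0.08 to +0.27, Cycs from −0.05 to +0.39, Ndufa4 from −0.29 to +0.75, Ndufs3 from −0.10 to +0.38, Ndufv1 from −0.43 to +0.08, Sdha from −0.14 to +0.09, Uqcr11 from −0.20 to +0.87, Uqcrc1 from −0.33 to +0.23, Uqcrh from −0.42 to +0.53 and Uqcrq from −0.29 to +0.73. Within the first run Atp5g2 was at +0.37, Atp5g3 at +0.05 and Sdha at +0.01. After quantile normalization Atp5g2 was at +0.04, Sdha at +0.04 and Uqcrc1 at +0.10, and averaging all probe sets of the gene put Sdha at +0.03. The median of complex V was −0.40 within the second run, with 1 mouse a group. Relative to its 6-array mean, complex II on treated replicate 2 was at +0.28 after quantile normalization, and cytochrome c on untreated replicate 2 at −0.26 when all its probe sets were averaged. Leaving out 1 mouse, the median of complex I ran from −0.10 to +0.51, of II from −0.01 to +0.19, of III from −0.23 to +0.38, of IV from +0.06 to +0.36 and of V from −0.18 to +0.41. The number of members lowest in untreated replicate 2 was 52 or 53 in settings chosen after seeing the data.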
